A study of Mus musculus with 25 samples.

Results

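The genes described here are 37 genes of T cell receptor signalling and T cell identity, measured in mouse liver after concanavalin A. They were chosen by name from the 15101 genes tested in the series, and all 37 had a probe and were tested. Livers came from female C57BL/6NcrSlc mice, 5 to a group and 1 array to a mouse, and no group carried an engineered allele. ConA + BW245C mice received 10 mg/kg concanavalin A (ConA), followed after 15 minutes by 1 mg/kg BW245C injected into the peritoneum, and their livers were taken at 24 hr or at 3 hr. ConA + vehicle mice received the same lectin and then vehicle, with livers at 24 hr or at 3 hr, and the remaining group was untreated. ConA is a plant lectin that crosslinks glycoproteins on T cells and causes hepatitis in mice, while BW245C activates DP1, one of the prostaglandin D2 receptors. Ptgdr, which encodes DP1, was well above background on 0 of the 25 arrays. The untreated mice are not described as injected, so an effect of ConA cannot be told apart from one of the injections.

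The T cell receptor recognises antigen through variable chains and signals through the CD3 chains and the zeta chain that accompany them. The kinase LCK, held near the receptor by the CD4 or CD8 co-receptor, phosphorylates these chains, which recruits the kinase ZAP70. ZAP70 phosphorylates the adaptor LAT, and calcium then activates the phosphatase calcineurin, which sends NFAT factors to the nucleus. The receptor's targets include CD69, IRF4 and the shorter products of Nfatc1, while TCF7 and LEF1 are factors of naive and memory T cells. In the liver, T cells and NKT cells lie among a majority of hepatocytes, and ConA hepatitis in mice depends on them.

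Levels are log2 signals relative to the 75th percentile of the array, so that 0 is that percentile. They are compared within a probe, not between genes. Where marker signals are summed over a list, the sum is on the linear scale, so the brightest probes weigh most. The genes that define T cells were measurable: Cd3d, Cd3e and Cd3g were well above background on all 25 arrays, and Cd247 on 10. In untreated livers 26 of the 37 genes were well above background on all 5 arrays and 9 on none. For a gene on no array of a group above background, the difference is given as a lower bound ("at least"), computed from the lowest signal called above background. Across arrays, 52.2% to 61.6% of the spots were well above background and 0 were saturated, and precision is limited by how many arrays there were. Differences are given with the standard error (SE) of a limma model over all 25 arrays, and a gene was said to have risen or fallen at an adjusted p under 0.05, by Benjamini and Hochberg over all 15101 genes. Since whole liver was measured, fewer cells of a type and less RNA per cell cannot be told apart.

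The arrays lay on 5 slides that shared groups unevenly. The ConA + BW245C arrays of 3 hr were all on slide 3, with 2 ConA + vehicle arrays of 3 hr and 1 of 24 hr. Slide 1 held 1 ConA + vehicle array of 3 hr, and slide 2 held 2 of them and 1 untreated array. Differences from untreated livers within slide 1 or 2, and between the times within slide 3, thus rest on 1 mouse on 1 side. On slide 4 were 3 ConA + BW245C and 4 ConA + vehicle arrays of 24 hr, and 4 of the 5 untreated arrays were on slide 1. Untreated and ConA + vehicle arrays at 24 hr shared no slide. Where a model that blocked on slides ended a call or moved a value, its result is given as that with slides blocked, and a difference within 1 slide is given where that slide held both groups.

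**Figure D1:**
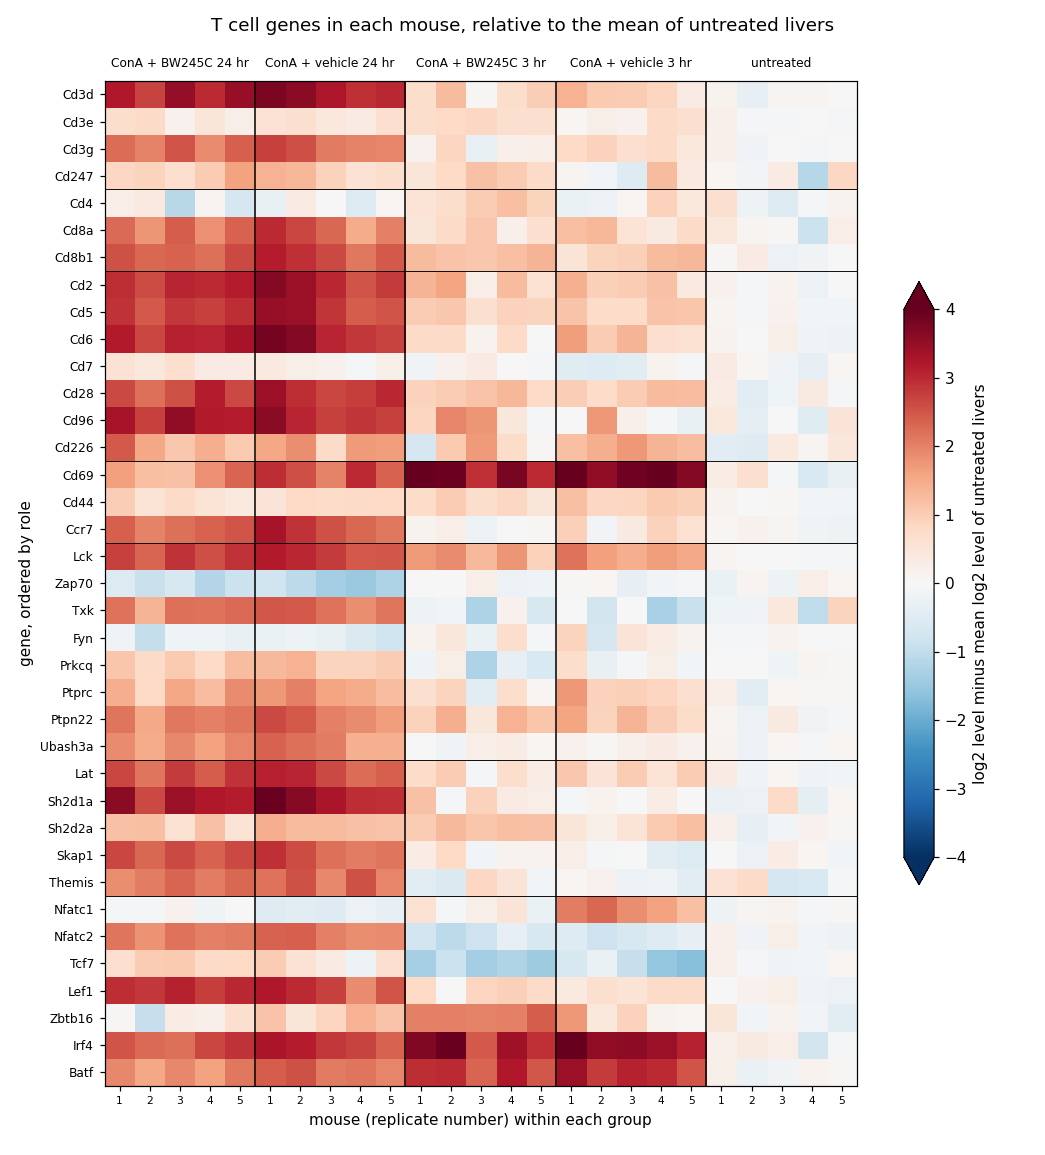
Each square is 1 gene in 1 mouse, as log2 level minus the mean log2 level of the 5 untreated livers, with genes in rows by role (lines separate CD3 chains, co-receptors, other surface receptors, activation and homing receptors, kinases and phosphatases, adaptors and transcription factors) and the 5 groups in columns. Cd69, Irf4 and Batf are strongest at 3 hr and most surface receptors and adaptors at 24 hr, and Nfatc1 and Zbtb16 differ most between the BW245C and vehicle columns at 3 hr. The 9 genes above background on no untreated array are drawn at their measured signal.

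Promoters of 4 of these genes are shown because the genes represent both time courses described below: Batf and Irf4 with the earlier maximum, and the neighbours Cd3d and Cd3g, which are transcribed in opposite directions, with the later one. Each is the 250 bases before a transcription start, from RefSeq on GRCm38.p6, 5′ to 3′ on the strand of the gene. Capitals mark the letters GGAAA, the core of NFAT sites, on either strand (TTTCC on the other), or in Irf4 the NF-kappaB pattern (GGG, any 5 bases, then CC) on either strand.
Batf, chr12:85686470-85686719, plus strand: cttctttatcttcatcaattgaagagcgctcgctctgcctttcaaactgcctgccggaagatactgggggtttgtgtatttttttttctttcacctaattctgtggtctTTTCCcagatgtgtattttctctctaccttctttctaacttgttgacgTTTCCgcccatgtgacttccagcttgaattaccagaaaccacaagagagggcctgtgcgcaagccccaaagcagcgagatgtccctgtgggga
Irf4, chr13:30748983-30749232, plus strand: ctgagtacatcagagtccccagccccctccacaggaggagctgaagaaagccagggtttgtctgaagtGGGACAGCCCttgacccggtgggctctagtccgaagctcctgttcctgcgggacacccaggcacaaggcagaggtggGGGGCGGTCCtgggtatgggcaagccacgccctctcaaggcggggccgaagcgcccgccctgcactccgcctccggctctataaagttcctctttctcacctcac
Cd3d, chr9:44981536-44981785, plus strand: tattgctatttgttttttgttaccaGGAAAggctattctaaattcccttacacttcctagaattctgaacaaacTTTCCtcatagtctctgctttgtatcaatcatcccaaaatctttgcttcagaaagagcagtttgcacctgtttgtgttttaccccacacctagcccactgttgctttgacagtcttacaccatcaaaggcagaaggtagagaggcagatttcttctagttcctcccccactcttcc
Cd3g, chr9:44980432-44980681, minus strand: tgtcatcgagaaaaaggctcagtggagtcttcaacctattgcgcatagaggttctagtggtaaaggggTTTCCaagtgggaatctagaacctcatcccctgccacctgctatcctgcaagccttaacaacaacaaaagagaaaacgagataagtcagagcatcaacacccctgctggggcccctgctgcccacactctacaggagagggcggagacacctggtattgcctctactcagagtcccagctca
In Batf the NFAT core lay from 141 to 137 and from 93 to 89 bases before the start, and in Irf4 the NF-kappaB pattern lay from 182 to 173 and from 105 to 96 bases before it. Cd3d held the NFAT core at 225 to 221 and at 176 to 172 bases, and Cd3g at 182 to 178 bases. Such matches are common: GGAAA was found in 14 of the 23 genes listed in the promoter table (60.9%) and in 55.6% of all 27025 promoters. The NF-kappaB pattern was found in 7 of 23 (30.4%) and in 45.4% of all promoters. The letters CTTTGA, the core of TCF and LEF sites, were in 5 of 23 (21.7%) against 14% of all, TGTGGT, the Runx core, in 3 (13%) against 14.2%, and TGANTCA, the AP-1 site, in 0 against 6.9%. The full cyclic AMP response element TGACGTCA was found in the promoter of Zap70 alone among the 23 (4.3%), against 1.6% of all, and its part TGACG in 4 (17.4%) against 17.9%. These motifs were searched on both strands and may overlap, and the matches describe letters, not binding.

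The early response to the lectin was read from ConA + vehicle livers at 3 hr set against untreated livers. The receptors and factors of activation led it: Cd69, Irf4 and Batf rose most, ahead of Nfatc1 and Lck, while Tcf7 and Nfatc2 fell. Of the 37 genes, 23 were higher and 2 lower, against 25% of all genes tested that were higher and 37% lower. The arrays of both groups did not overlap for 19 higher and 2 lower genes (18.2% and 29.2% of all genes tested). The median difference over the 37 genes was 0.71 on the log2 scale, against -0.09 over all genes tested. With the 3 genes that have a bound at that bound and 6 dim genes left out it was 0.72. With slides blocked, 19 were higher and 3 lower.

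Cd69 encodes a surface lectin induced within hours of receptor engagement, which keeps lymphocytes in tissue. Its levels were -0.44, -1.46, -1.14, -0.97 and -1.34 in ConA + vehicle livers at 3 hr, against -4.71, -4.37, -5.06, -5.61 and -5.32 in untreated livers. Every ConA + vehicle liver lay far above every untreated one, and Cd69 was 15.4-fold higher (log2 3.95 ± 0.28 SE, adjusted p = 2.31e-11). Cd69 was well above background on 1 of the 5 untreated arrays. The difference was 4.04 within slide 1 and 3.42 within slide 2.

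Irf4 encodes a factor whose level follows the strength of receptor signalling. It stood at -0.61, -1.44, -1.42, -1.56 and -1.91 in ConA + vehicle livers at 3 hr, against -4.81, -4.64, -4.73, -5.75 and -5.10 in untreated livers, where it was above background on no array. The groups did not overlap, and Irf4 was at least 9.62-fold higher (adjusted p = 5.92e-11). Batf encodes an AP-1 family factor that pairs with IRF4 on DNA. It stood at 1.11, 0.46, 0.73, 0.63 and 0.18 in ConA + vehicle livers at 3 hr, against -2.10, -2.62, -2.47, -2.21 and -2.30 in untreated livers, again with no overlap. Batf was 7.80-fold higher (log2 2.96 ± 0.18 SE, adjusted p = 1.13e-12).

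Nfatc1 encodes the NFAT factor that induces its own transcription in T cells. Its levels were 2.00, 2.24, 1.81, 1.55 and 1.14 in ConA + vehicle livers at 3 hr, against -0.24, 0.04, 0.08, -0.14 and -0.01 in untreated livers. All 5 ConA + vehicle livers lay above all untreated ones, for a 3.49-fold rise (log2 1.80 ± 0.16 SE, adjusted p = 1.73e-09), and a dimmer Nfatc1 probe gave 1.85. Nfatc2, the NFAT factor of resting T cells, went the other way. It stood at -3.43, -3.76, -3.55, -3.45 and -3.26 in ConA + vehicle livers at 3 hr, against -2.73, -3.07, -2.68, -3.02 and -3.12 in untreated livers, without overlap (fell by 0.57 ± 0.14 SE on the log2 scale, adjusted p = 0.000915). Its second probe, above background on 6 of 25 arrays, gave 0.12, and the call was lost with the mean of both probes (-0.23, adjusted p = 0.281) and with a normexp background (-0.039, adjusted p = 0.702).

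Tcf7, which encodes the factor TCF1 of naive and stem-like T cells, had levels of -2.98, -2.61, -3.26, -3.89 and -4.03 in ConA + vehicle livers at 3 hr, against -2.13, -2.39, -2.47, -2.46 and -2.26 in untreated livers. The groups did not overlap, and it fell by 1.01 ± 0.22 SE on the log2 scale (adjusted p = 0.000392). Lef1, which encodes a related factor, was above background on 1 ConA + vehicle array at 3 hr and 0 untreated arrays and was at least 1.11-fold higher (adjusted p = 0.00654), which did not hold once slides were blocked (adjusted p = 0.0984). Zbtb16, which encodes the factor PLZF of NKT cells, had overlapping groups and rose by 0.65 ± 0.28 SE on the log2 scale (adjusted p = 0.0468). Leaving out 1 of 15 of the 25 mice in turn ended the Zbtb16 call (adjusted p up to 0.184, without ConA + vehicle 3 hr replicate 1). The call was also lost with the percentile over probes detected on all arrays (adjusted p = 0.0541) and with no filter on dim probes (0.0621). It was lost too with the authors' series matrix values (0.0801) and with the compared groups fitted alone (0.0843). With slides blocked the adjusted p was 0.0142.

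Among kinases and phosphatases, 3 of 8 rose and 0 fell. Lck, the kinase that starts receptor signalling, was at 1.41, 0.88, 0.69, 0.90 and 0.74 in ConA + vehicle livers at 3 hr, against -0.66, -0.75, -0.73, -0.80 and -0.85 in untreated livers. The groups were clearly apart, a 3.21-fold rise (log2 1.68 ± 0.17 SE, adjusted p = 1.34e-08). Ptpn22, a phosphatase that restrains LCK, rose by 1.12 ± 0.21 SE and Ptprc, the CD45 phosphatase of all leukocytes, by 1.03 ± 0.24 SE on the log2 scale. Zap70 (-0.08), Fyn (0.22), Prkcq (0.09) and Txk (-0.58) did not pass, nor did Ubash3a, above background on 0 arrays of both groups, with 95% confidence intervals for the log2 difference of Zap70 from -0.36 to 0.20 and of Txk from -1.23 to 0.06.

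Of the 4 CD3 chain genes, 3 rose at 3 hr. Cd3d stood at -1.27, -1.62, -1.67, -1.82 and -2.34 in ConA + vehicle livers and at -2.54, -3.00, -2.56, -2.57 and -2.67 in untreated livers. Its groups did not overlap, and it rose by 0.92 ± 0.22 SE (adjusted p = 0.000754), 0.92 within slide 1 and 1.55 within slide 2. Cd3g stood at -2.03, -1.90, -2.16, -2.08 and -2.41 in ConA + vehicle livers, against -2.63, -2.97, -2.82, -2.92 and -2.83 in untreated livers, also apart (0.72 ± 0.18 SE, adjusted p = 0.00124). Cd3e was at 2.07, 2.22, 2.16, 2.76 and 2.61 in ConA + vehicle livers, against 2.19, 1.91, 1.90, 1.97 and 1.96 in untreated livers. Here the groups overlapped, and the rise of 0.38 ± 0.13 SE (adjusted p = 0.0134) did not hold once slides were blocked (0.19, adjusted p = 0.118). Cd247, the zeta chain gene, was at -5.14, -5.36, -5.78, -4.0 and -4.87 in ConA + vehicle livers, against -5.17, -5.36, -4.93, -6.41 and -4.41 in untreated livers, where it was above background on 0 arrays, and it did not pass (adjusted p = 0.528).

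Of the co-receptor genes, both CD8 chains rose and Cd4 did not pass. Cd8a was at -4.0, -3.88, -4.66, -4.86 and -4.45 in ConA + vehicle livers at 3 hr, above background on 2 arrays, against -4.78, -5.10, -5.16, -6.08 and -4.94 in untreated livers, on 0 arrays. The ranges overlapped, and Cd8a was at least 1.25-fold higher (adjusted p = 0.00815; with slides blocked, adjusted p = 0.0505). Cd8b1 rose by 0.99 ± 0.17 SE. Cd4 was at 5.21, 5.23, 5.54, 6.40 and 5.91 in ConA + vehicle livers, against 6.12, 5.27, 4.97, 5.40 and 5.64 in untreated livers, with ranges that overlapped almost whole (0.18, 95% confidence interval -0.39 to 0.75, adjusted p = 0.585).

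Of the 7 other surface receptors, 5 rose: Cd28, the main costimulatory receptor, by 1.05 ± 0.17 SE, Cd6, a receptor that modulates signalling at the synapse, by 1.07 ± 0.23 SE, Cd2, an adhesion receptor, by 0.99 ± 0.23 SE, and Cd5, an inhibitory receptor, by 0.97 ± 0.17 SE, with Cd226 the other. Cd226, an activating receptor shared with NK cells, was at -4.93, -4.70, -4.40, -4.78 and -4.91 in ConA + vehicle livers, against -6.61, -6.66, -5.74, -6.02 and -5.69 in untreated livers (adjusted p = 0.00104). The groups did not overlap, but Cd226 was above background on 1 ConA + vehicle array and 0 untreated arrays, so no fold is given. A second Cd6 probe gave 0.13. Cd44, an adhesion receptor raised on activated cells, rose by 0.97 ± 0.11 SE without overlap, and 3 other Cd44 probes gave 1.74 to 2.34, of which 1 was above background on all 25 arrays (2.14). Ccr7, the homing receptor to lymph nodes, rose by 0.54 ± 0.20 SE, which did not pass once slides were blocked (adjusted p = 0.294). Of the adaptors, Lat, the scaffold of the receptor complex, rose by 0.84 ± 0.20 SE and Sh2d2a, a binding partner of LCK, by 0.71 ± 0.16 SE, although a second Sh2d2a probe gave -0.14. Skap1, Themis and Sh2d1a did not pass.

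**Figure D2:**
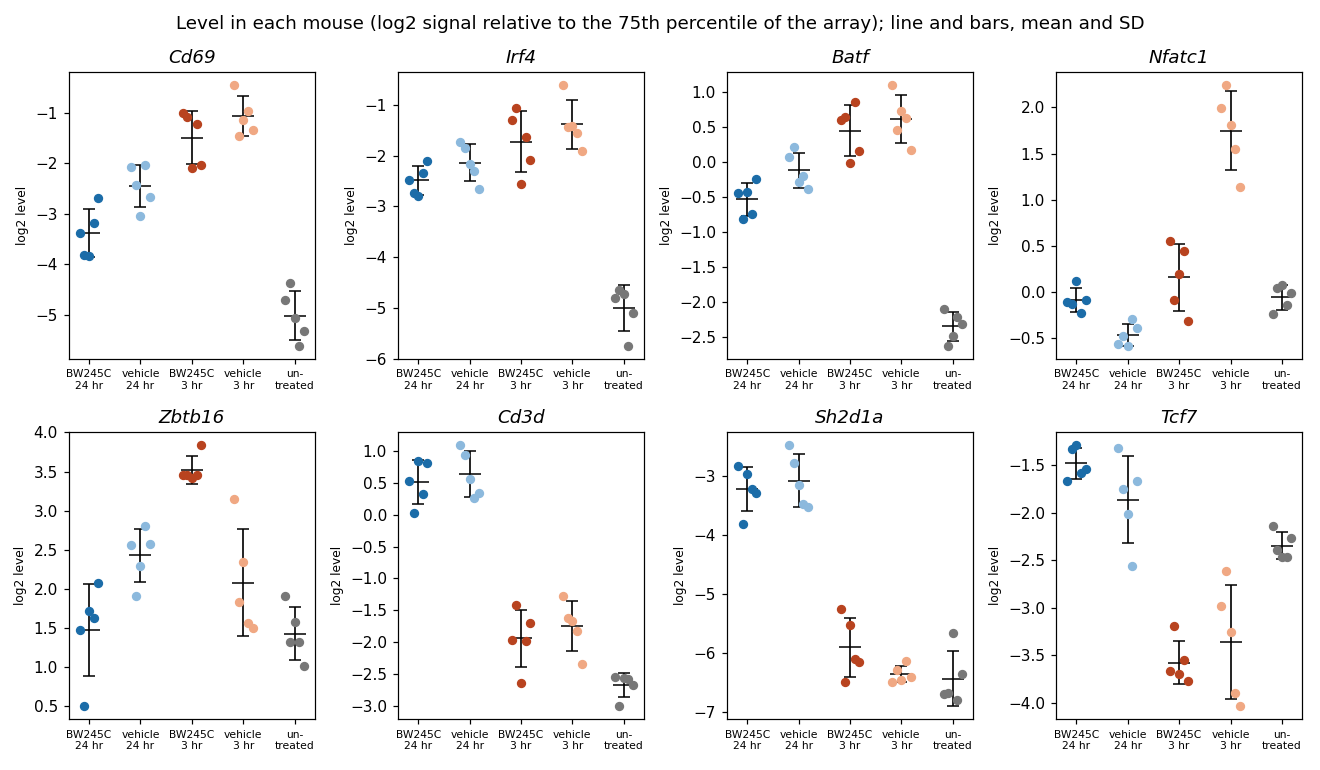
Each point is the log2 level of 1 mouse for 8 genes, in 5 groups, with the mean as a line and the SD as bars (n = 5 each). At 3 hr Cd69, Irf4, Batf and Nfatc1 stand above untreated livers in all 5 ConA + vehicle mice, Sh2d1a stands above them at 24 hr alone, and Nfatc1 and Zbtb16 separate the BW245C from the vehicle mice at 3 hr.

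The later phase of the hepatitis was read in the same way at 24 hr. Most of the T cell genes were then higher: Cd3d, Cd6, Cd2, Cd28, Cd5, Cd8b1, Lat and Lck rose most among those measured in both groups, from 6.29-fold to 9.86-fold. Of the 37 genes, 31 were higher and 2 lower (29.8% of all genes tested were higher and 39.1% lower), and 29 higher and 3 lower had no overlap (27.3% and 36.7% of all). This gave a median log2 difference of 2.23 against -0.08 over all genes tested. The 9 genes above background on no untreated array were all among the 31, as they had to be high somewhere to be tested. Of the 28 others, 22 were higher and 2 lower, and with the 9 at their bounds the median was 1.77. With slides blocked 30 were higher and 2 lower, and with a normexp background correction the median was 0.78. In the series matrix, whose authors' scaling differs, the all-gene split at 24 hr was 7248 higher and 3782 lower, against 4494 higher and 5909 lower here.

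Sh2d1a encodes SAP, an adaptor of the SLAM receptors needed for NKT cell development. It was at -2.48, -2.78, -3.16, -3.48 and -3.52 in ConA + vehicle livers at 24 hr, against -6.69, -6.67, -5.66, -6.79 and -6.36 in untreated livers, where it was above background on no array. The groups lay well apart, and Sh2d1a was at least 3.04-fold higher (adjusted p = 3.19e-11). Cd96, a receptor of T and NK cells, was at -2.88, -3.43, -3.75, -3.63 and -3.73 in ConA + vehicle livers, against -6.07, -6.88, -6.51, -6.97 and -5.98 in untreated livers. It too was dim in every untreated liver and was at least 2.30-fold higher (adjusted p = 1.08e-07).

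Cd3d was at 1.09, 0.93, 0.56, 0.26 and 0.34 in ConA + vehicle livers at 24 hr, against -2.54, -3.00, -2.56, -2.57 and -2.67 in untreated livers. It was high in all 5 ConA + vehicle livers, 9.86-fold above untreated (log2 3.30 ± 0.22 SE, adjusted p = 5.26e-12). Cd3g was at -0.10, -0.26, -0.74, -0.86 and -0.89 in ConA + vehicle livers, against -2.63, -2.97, -2.82, -2.92 and -2.83 in untreated livers, likewise apart (4.81-fold, log2 2.27 ± 0.18 SE, adjusted p = 9.97e-11). Cd3e was at 2.58, 2.61, 2.40, 2.31 and 2.65 in ConA + vehicle livers, against 2.19, 1.91, 1.90, 1.97 and 1.96 in untreated livers. It did not overlap, but the rise was only 1.44-fold (log2 0.52 ± 0.13 SE, adjusted p = 0.000958) and with slides blocked it was 0.08 (adjusted p = 0.685). Cd247 was at -3.88, -3.94, -4.34, -4.68 and -4.55 in ConA + vehicle livers and at -5.17, -5.36, -4.93, -6.41 and -4.41 in untreated livers. It was on 5 arrays and 0 arrays above background, at least 1.33-fold higher (adjusted p = 0.00685), which did not pass once slides were blocked (adjusted p = 0.511) and was -0.033 with the normexp background.

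Cd6 was at 0.97, 0.80, 0.18, -0.05 and -0.16 in ConA + vehicle livers at 24 hr, against -2.73, -2.89, -2.62, -2.99 and -3.08 in untreated livers. Its groups were far apart, a 9.25-fold rise (log2 3.21 ± 0.23 SE, adjusted p = 1.96e-11), whereas its second probe gave 0.35. Cd2 was at 1.28, 1.04, 0.62, 0.10 and 0.39 in ConA + vehicle livers, against -2.22, -2.49, -2.26, -2.65 and -2.41 in untreated livers (8.52-fold, log2 3.09 ± 0.23 SE, adjusted p = 5.91e-11), and its second probe gave 2.73. Cd28 was at -0.12, -0.59, -0.85, -0.77 and -0.50 in ConA + vehicle livers, against -3.25, -3.95, -3.70, -3.17 and -3.60 in untreated livers. No liver of either group came near the other for Cd2 or Cd28, and Cd28 was 7.81-fold higher (log2 2.97 ± 0.17 SE, adjusted p = 6.41e-13). Cd5 rose by 2.95 ± 0.17 SE. Cd226, above background on 4 ConA + vehicle arrays, was at least 1.03-fold higher (adjusted p = 0.000431) and was -0.010 with the normexp background.

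Cd8a was at -2.21, -2.56, -2.92, -3.71 and -3.19 in ConA + vehicle livers at 24 hr, against -4.78, -5.10, -5.16, -6.08 and -4.94 in untreated livers, apart and at least 3.40-fold higher (adjusted p = 5.84e-08). Cd8b1, the partner chain, was 6.29-fold higher (log2 2.65 ± 0.17 SE, adjusted p = 2.65e-12). Cd4 was at 5.19, 5.81, 5.51, 4.93 and 5.57 in ConA + vehicle livers, against 6.12, 5.27, 4.97, 5.40 and 5.64 in untreated livers, fully overlapping (-0.08, 95% confidence interval -0.65 to 0.49, adjusted p = 0.804). The mean level over all arrays was 5.63 for the Cd4 probe used and -2.98 for the second one, which gave 0.21. With slides blocked the probe used gave -1.08 (adjusted p = 0.0131). Which liver cells carried either Cd4 signal was not tested.

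All 5 adaptors were higher at 24 hr by the probes used. Skap1, which links the receptor to integrins, was 5.24-fold (log2 2.39 ± 0.18 SE) and Lat 6.44-fold higher (log2 2.69 ± 0.20 SE), and Themis, a regulator of signal strength in thymocytes, at least 1.75-fold, above background on 4 arrays. With a normexp background Themis was 0.23 and did not pass (adjusted p = 0.0516). Sh2d2a gave 1.26 by the probe used, but 0.06 by its second probe, above background on 24 of 25 arrays. Of the 8 kinases and phosphatases, 6 were higher, led by Lck at 6.86-fold (log2 2.78 ± 0.17 SE, adjusted p = 2.53e-12). Txk, a TEC family kinase, was 4.66-fold higher and Prkcq, which encodes protein kinase C theta, 2.14-fold.

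Zap70 alone among the kinases and phosphatases was lower at the threshold. It was at 2.15, 1.92, 1.60, 1.49 and 1.72 in ConA + vehicle livers at 24 hr, against 2.71, 3.08, 2.75, 3.22 and 3.04 in untreated livers. All 5 ConA + vehicle livers were lower, and Zap70 fell by 1.18 ± 0.14 SE on the log2 scale (2.27-fold, adjusted p = 6.29e-08), while a second probe gave -1.32. Fyn, the other kinase of the LCK family here, had a difference of -0.43 that did not pass (adjusted p = 0.0907). Its 5 ConA + vehicle livers nevertheless all lay below the untreated ones. Fyn passed with quantile normalization (-0.62, adjusted p = 0.0177), a normexp background (-0.40, adjusted p = 0.00179) and the compared groups fitted alone (adjusted p = 0.00632), but not with slides blocked.

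Cd69 was at -2.08, -2.43, -3.04, -2.04 and -2.67 in ConA + vehicle livers at 24 hr, against -4.71, -4.37, -5.06, -5.61 and -5.32 in untreated livers. It stayed apart from untreated livers, 5.91-fold higher (log2 2.56 ± 0.28 SE, adjusted p = 2.45e-08). Ccr7 was 6.20-fold higher (log2 2.63 ± 0.20 SE) and Cd44 rose by 0.72 ± 0.11 SE, while the other Cd44 probe above background on all 25 arrays gave 2.41.

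Among the transcription factor genes at 24 hr, Lef1 was at least 4.60-fold and Irf4 at least 5.70-fold higher, Batf 4.69-fold (log2 2.23 ± 0.18 SE) and Nfatc2 4.30-fold (log2 2.10 ± 0.14 SE). The second, dim Nfatc2 probe gave -0.73. Zbtb16 rose by 1.00 ± 0.28 SE (adjusted p = 0.00297), with overlapping ranges of 1.91 to 2.81 in ConA + vehicle livers and 1.01 to 1.91 in untreated livers. Nfatc1 was at -0.56, -0.48, -0.58, -0.29 and -0.38 in ConA + vehicle livers, against -0.24, 0.04, 0.08, -0.14 and -0.01 in untreated livers. These 5 were all lower (fell by 0.41 ± 0.16 SE, adjusted p = 0.0325), but it did not pass once slides were blocked (adjusted p = 0.768) and the second Nfatc1 probe gave 0.41. Tcf7 did not pass (0.48, 95% confidence interval 0.02 to 0.94, adjusted p = 0.0572), although it was higher with slides blocked (adjusted p = 0.00826).

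**Figure D3:**
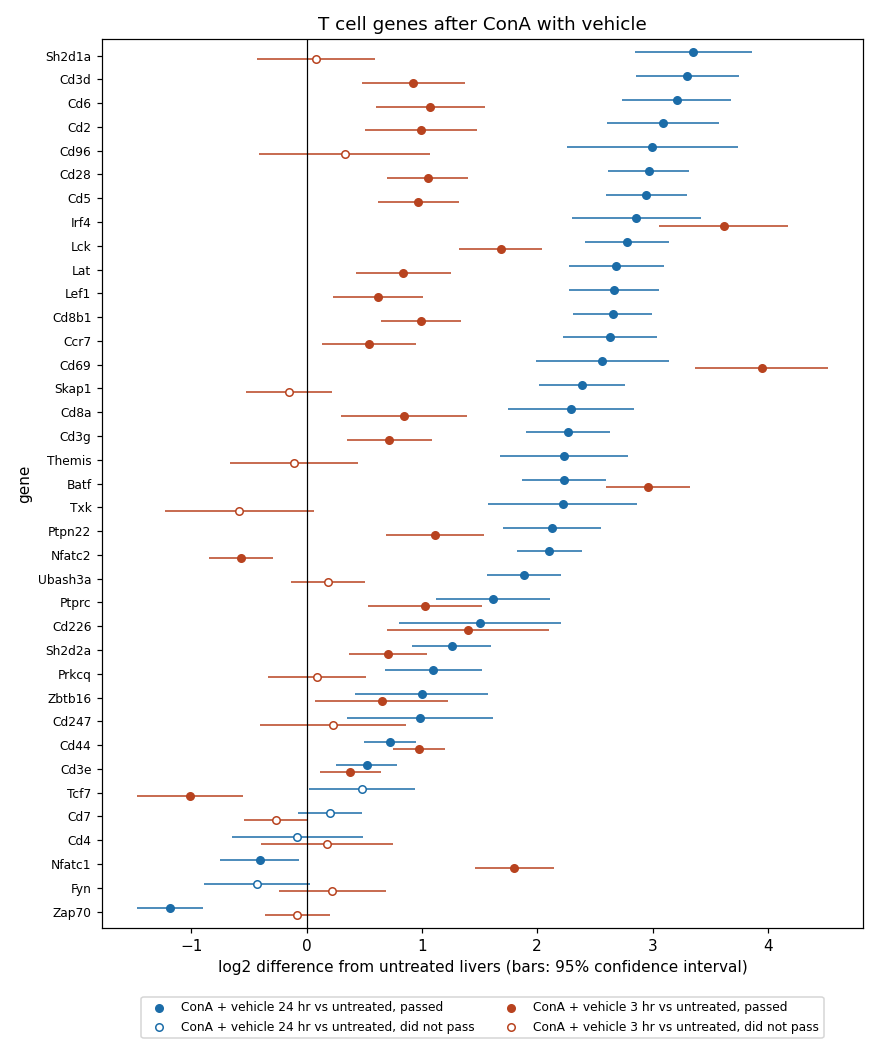
Points are log2 differences of ConA + vehicle from untreated livers at 24 hr and at 3 hr for the 37 genes, with 95% confidence intervals, filled where the adjusted p was under 0.05. Most points at 24 hr lie right of those at 3 hr, while Cd69, Irf4, Batf and Nfatc1 lie further right at 3 hr. Genes above background on no untreated array (among them Sh2d1a, Cd96 and Irf4) are drawn at the fitted value, which is no bound, and Cd247 and Cd226 at 24 hr lie at or just below 0 with a normexp background.

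Markers of other cells moved at the same times. The counts below stand beside 29.8% higher and 39.1% lower of all genes tested at 24 hr. At 3 hr these shares were 25% and 37%, and with slides blocked they were not counted. At 24 hr all 6 measured NK cell markers were higher, led by Gzma, a granzyme gene (log2 3.92 ± 0.22 SE), and their summed signal was 1360 to 1750 in ConA + vehicle livers, against 147 to 174 in untreated livers, in percent of the 75th percentile. All 6 were above background on all 5 ConA + vehicle arrays, against 2 on all 5 untreated arrays and 1 on none of them. B cell markers were higher in 5 and lower in 1 of 6, with sums of 175 to 459 in ConA + vehicle livers and 210 to 232 in untreated livers. Neutrophil markers rose in 5 of 7, with sums of 26600 to 39900 against 11900 to 13500, and hepatocyte markers fell in 7 of 8, with sums of 332000 to 436000 in ConA + vehicle livers and 497000 to 594000 in untreated livers. At 3 hr 3 of 6 NK cell markers rose and 1 fell, and 5 of 7 neutrophil markers rose, with sums of 18600 to 29500 in ConA + vehicle livers and 11900 to 13500 in untreated livers. Monocyte and macrophage markers fell in 5 of 6 at 3 hr, with sums of 2710 to 5090 in ConA + vehicle livers and 3740 to 5230 in untreated livers. With slides blocked, 1 NK cell marker was higher and 1 monocyte and macrophage marker lower at 3 hr. At 24 hr, blocking left 5 NK cell markers higher and 0 lower, and 4 B cell markers higher and 1 lower. It left 5 neutrophil markers higher and 1 lower, and 1 hepatocyte marker higher and 4 lower. Of the other lists at 24 hr, 6 of 7 Kupffer cell, 5 of 7 sinusoidal endothelial, 2 of 6 monocyte and macrophage and 1 of 6 dendritic cell markers fell, and 0, 1, 2 and 3 of them rose, in the same order. With slides blocked 5, 4, 2 and 1 of them fell and 0, 0, 2 and 2 rose. The part of these cells in the T cell gene differences was not tested. Cd2, Cd7, Cd96, Cd226, Sh2d1a, Zbtb16 and Txk, among others, are known to be expressed in NK cells or other innate lymphocytes as well. That list is not complete, and Ptprc belongs to all leukocytes. Which cells carried the differences of Cd69, Irf4, Batf, Nfatc1, Lck and Zap70 was not tested either.

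Other genes of the T cell receptor pathway moved with the 37, but in both directions. Of 49 measured genes of a list of 54, 20 were higher and 16 lower at 3 hr (25% and 37% of all genes tested), and 28 higher and 11 lower at 24 hr (29.8% and 39.1% of all). The largest rises at 3 hr were those of Egr2, a factor induced by calcium signalling (log2 7.12 ± 0.32 SE, adjusted p = 1.26e-14), Il2ra, the high-affinity interleukin 2 receptor chain (3.65 ± 0.29 SE), and Il2, the T cell growth factor (at least 6.36-fold, adjusted p = 1.65e-09). Egr2 was above background on 2 untreated arrays and Il2ra on 1. The largest falls were those of Csk, the kinase that inhibits LCK (-1.35 ± 0.15 SE), Tec (-1.32 ± 0.15 SE) and Plcg1 (-1.16 ± 0.12 SE). At 24 hr Egr2 (4.71 ± 0.32 SE) and Il2ra (4.32 ± 0.29 SE) were among the largest rises, and Sos1 (-1.78 ± 0.22 SE), Plcg1 (-1.11 ± 0.12 SE) and Ppp3ca, a calcineurin subunit (-0.91 ± 0.07 SE), fell most.

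A direct comparison of the 2 times in ConA + vehicle livers gave an early set, higher at 3 hr, and a late set, higher at 24 hr. The sets are named by this comparison alone, whatever a gene did against untreated livers. At 24 hr 26 of the 37 genes were higher than at 3 hr and 7 lower, against 33.2% and 35.3% of all genes tested, and 22 higher and 4 lower had no overlap (24.9% and 27.4% of all). Cd96, Sh2d1a, Themis and Ubash3a were above background on no ConA + vehicle array at 3 hr, and of the 33 genes measured at both times 22 were higher and 7 lower. The median log2 difference was 1.45 (1.01 with 3 genes at their bounds and 1 left out), against -0.03 over all genes tested. With slides blocked, 25 were higher and 4 lower, and with a normexp background the median was 0.37.

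The late set held Cd3d, Cd3g, Ccr7 and all 5 adaptors, and Cd247 also passed (0.75 ± 0.31 SE, adjusted p = 0.0329), but not with slides blocked (adjusted p = 0.163) and with the opposite sign with a normexp background (-0.24). Among the adaptors, the second Sh2d2a probe gave 0.20, against 0.55 for the probe used, and Themis was -0.011 with a normexp background. Sh2d1a, whose levels at 24 hr are given above, was at -6.49, -6.29, -6.45, -6.14 and -6.40 at 3 hr, above background on no array there, and was at least 2.51-fold higher at 24 hr (adjusted p = 4.97e-11). Txk was at -1.58, -1.60, -1.88, -2.19 and -1.92 at 24 hr, against -4.02, -4.80, -4.06, -5.34 and -4.94 at 3 hr, on 5 and 2 arrays above background (log2 2.80 ± 0.31 SE, adjusted p = 3.18e-08). Skap1 was at 0.18, -0.13, -0.53, -0.70 and -0.60 at 24 hr, against -2.47, -2.78, -2.76, -3.19 and -3.28 at 3 hr (2.54 ± 0.18 SE, adjusted p = 2.02e-11). In each of these 3 genes the times did not overlap. Nfatc2 was at -0.56, -0.53, -0.91, -1.08 and -1.03 at 24 hr, against -3.43, -3.76, -3.55, -3.45 and -3.26 at 3 hr, 6.38-fold apart (2.67 ± 0.14 SE, adjusted p = 1.3e-13). Cd3d was 5.20-fold (2.38 ± 0.22 SE), Lef1 4.13-fold (2.04 ± 0.19 SE), Ccr7 4.25-fold (2.09 ± 0.20 SE) and Tcf7 2.82-fold higher (1.5 ± 0.22 SE) at 24 hr, while Cd3e (0.14, 95% confidence interval -0.12 to 0.41) did not pass. Against untreated livers Tcf7 was lower at 3 hr (-1.01) and did not pass at 24 hr (0.48). Cd96, at -6.46, -4.74, -6.27, -6.52 and -6.78 in the 3 hr livers and above background on none of those arrays, was at least 1.90-fold higher at 24 hr (adjusted p = 6.08e-07), but with a normexp background the difference was 0.10 and did not pass (adjusted p = 0.405).

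The early set was small. Nfatc1 fell by 2.21 ± 0.16 SE at 24 hr relative to 3 hr (adjusted p = 4.51e-11) and by 1.91 within slide 3, with no overlap in the levels given above. Cd69 was at -2.08, -2.43, -3.04, -2.04 and -2.67 at 24 hr, against -0.44, -1.46, -1.14, -0.97 and -1.34 at 3 hr, apart and lower at 24 hr by 2.61-fold (-1.38 ± 0.28 SE, adjusted p = 0.000131). Zap70 was at 2.99, 3.03, 2.62, 2.86 and 2.89 at 3 hr, all above the 24 hr livers (-1.10 ± 0.14 SE, adjusted p = 1.83e-07). Against untreated livers Zap70 did not pass at 3 hr (-0.08) and was lower at 24 hr (-1.18). Cd44 was at 0.79, 1.1, 1.01, 1.06 and 1.09 at 24 hr, against 1.48, 1.12, 1.14, 1.33 and 1.25 at 3 hr, narrowly apart. Irf4 (-0.76 ± 0.27 SE), Batf (-0.73 ± 0.18 SE), Fyn (-0.65 ± 0.22 SE) and Cd44 (-0.25 ± 0.11 SE) also fell, but these 4 did not pass once slides were blocked, and Cd44 turned to 0.20 in the authors' series matrix values. By their calls against untreated livers, 22 of the 37 genes were higher at both times and 8 at 24 hr and not at 3 hr (Cd247, Cd96, Txk, Prkcq, Sh2d1a, Skap1, Themis and Ubash3a). Cd4, Cd7 and Fyn passed at neither, although with slides blocked Cd7 was lower at 3 hr (-0.45, adjusted p = 0.0159) and with a normexp background Fyn was lower at 24 hr (-0.40, adjusted p = 0.00179). Cd4 was lower at 24 hr with slides blocked (-1.08, adjusted p = 0.0131). Between the times Cd4 did not pass (-0.26, adjusted p = 0.418), and its second probe gave 0.04. With slides blocked Cd4 was lower at 24 hr than at 3 hr (-1.05, adjusted p = 0.00263). Within slide 3, which held 1 ConA + vehicle array of 24 hr, the difference was -0.97.

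What the DP1 agonist changed was read from ConA + BW245C livers set against ConA + vehicle livers. At 3 hr the largest differences past the test were those of the factors Nfatc1 and Zbtb16, which moved in opposite directions. Of the 37 genes, 3 were higher and 3 lower, against 11.8% higher and 16.9% lower of all genes tested, and 1 higher and 1 lower had no overlap (3.99% and 9.5% of all). The median log2 difference was -0.06, against -0.04 over all genes tested. At an unadjusted p under 0.05, 6 were higher and 7 lower, but the share of all genes was not counted at that threshold. With slides blocked 1 was higher (Zbtb16) and 2 lower (Nfatc1 and Ccr7). The other calls depended on the scaling: 8 were lower with quantile normalization, and 6 were higher and 1 lower in the authors' series matrix values.

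Nfatc1 was at 0.55, -0.08, 0.19, 0.45 and -0.31 in ConA + BW245C livers at 3 hr, against 2.00, 2.24, 1.81, 1.55 and 1.14 in ConA + vehicle livers. All 5 BW245C livers lay below all vehicle livers. They overlapped the untreated range of -0.24 to 0.08, with 0.55, 0.45 and 0.19 above it, and were not tested against untreated livers. Nfatc1 was 3.01-fold lower than with vehicle (-1.59 ± 0.16 SE, adjusted p = 1.01e-06), -1.23 with slides blocked (adjusted p = 0.00018) and -1.18 within slide 3, and its second probe gave -1.24. From untreated to ConA + vehicle livers that second probe had risen by 1.85. Zbtb16 was at 3.45, 3.45, 3.41, 3.45 and 3.84 in ConA + BW245C livers at 3 hr, against 3.15, 1.84, 2.35, 1.56 and 1.5 in ConA + vehicle livers. The BW245C livers were all higher and closely spaced, a 2.72-fold difference (1.44 ± 0.28 SE, adjusted p = 0.000672), 1.91 with slides blocked (adjusted p = 0.000661) and 1.99 within slide 3. ConA + vehicle replicate 1 stood nearest to the BW245C livers. Which liver cells carried the Zbtb16 signal was not tested.

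Cd3e was at 2.70, 2.78, 2.82, 2.63 and 2.63 in ConA + BW245C livers at 3 hr, against 2.07, 2.22, 2.16, 2.76 and 2.61 in ConA + vehicle livers, a difference of 0.34 ± 0.13 SE (adjusted p = 0.0471). Cd3g was at -2.68, -1.99, -3.13, -2.64 and -2.58 in ConA + BW245C livers, against -2.03, -1.90, -2.16, -2.08 and -2.41 in ConA + vehicle livers (-0.49 ± 0.18 SE, adjusted p = 0.0436). Both pairs of groups overlapped, and both calls, in opposite directions, were lost with slides blocked (0.02 and -0.40, adjusted p = 0.919 and 0.225). Ptprc (-0.65 ± 0.24 SE, adjusted p = 0.0462) and Sh2d2a (0.45 ± 0.16 SE, adjusted p = 0.042) passed too and were lost in the same way (adjusted p = 0.419 and 0.889).

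Cd3d was at -1.96, -1.42, -2.63, -1.98 and -1.70 in ConA + BW245C livers at 3 hr, against -1.27, -1.62, -1.67, -1.82 and -2.34 in ConA + vehicle livers, and did not pass (-0.19, 95% confidence interval -0.64 to 0.25). Cd247 was at -4.78, -4.45, -4.09, -4.24 and -4.48 in ConA + BW245C livers, against -5.14, -5.36, -5.78, -4.0 and -4.87 in ConA + vehicle livers, above background on 1 array of each group (0.62, interval -0.01 to 1.26). Cd4 was at 6.04, 6.19, 6.49, 6.69 and 6.38 in ConA + BW245C livers, mostly above the 5.21, 5.23, 5.54, 6.40 and 5.91 of ConA + vehicle livers (0.70, interval 0.13 to 1.27, adjusted p = 0.0601; 0.18 with slides blocked). These groups overlapped in every case. Cd8a was at -4.74, -4.44, -4.14, -5.00 and -4.53 in ConA + BW245C livers, above background on no array, against -4.0, -3.88, -4.66, -4.86 and -4.45 in ConA + vehicle livers, with no bound above 1-fold. Cd69 was at -1.01, -1.08, -2.10, -1.22 and -2.02 in ConA + BW245C livers, against -0.44, -1.46, -1.14, -0.97 and -1.34 in ConA + vehicle livers, overlapping (-0.42, interval -1.0 to 0.16, adjusted p = 0.269). Irf4 (-0.34, interval -0.90 to 0.22) and Batf (-0.17, interval -0.53 to 0.20) did not pass. For 29 of the 37 genes the whole interval lay within 1 log2 unit of 0.

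Cd44 depended on its probe. The brightest probe gave -0.22 at 3 hr and -0.08 at 24 hr for ConA + BW245C against ConA + vehicle livers and did not pass at either time. A second Cd44 probe above background on all 25 arrays gave -1.02 and -0.77, and the dim ones were also below 0. With the mean of a gene's probes Cd44 was lower with the agonist at 3 hr (-0.64, adjusted p = 0.0046) and at 24 hr (-0.46, adjusted p = 0.0314). Cd6 did not pass at 3 hr, and its probes differed in sign, -0.59 for the brightest and 0.61 for the second.

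**Figure D4:**
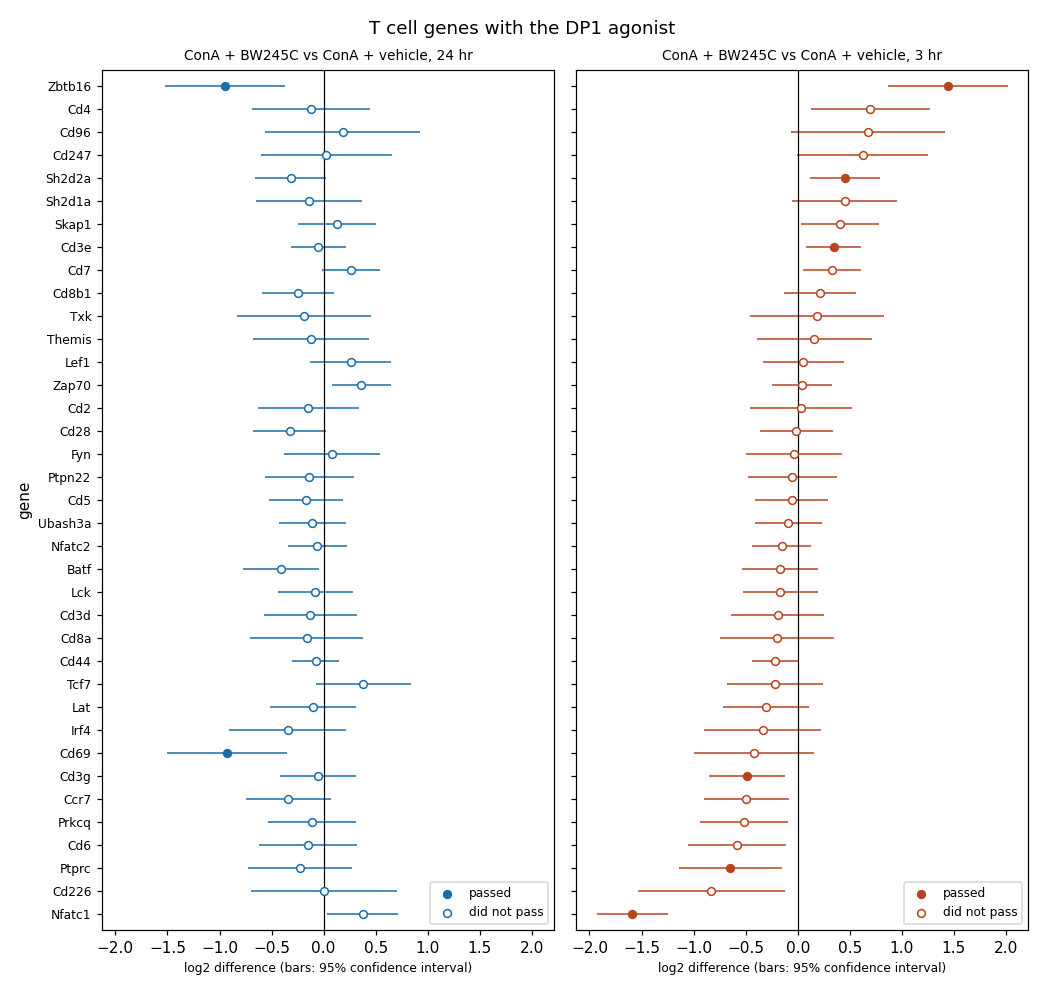
Points are log2 differences of ConA + BW245C from ConA + vehicle livers for the 37 genes, at 24 hr (left) and 3 hr (right), with 95% confidence intervals, filled where the adjusted p was under 0.05. Zbtb16 and Nfatc1 mark the ends at 3 hr, and Zbtb16 and Cd69 lie lowest at 24 hr. Of the filled points at 3 hr, Cd3e, Cd3g, Ptprc and Sh2d2a are open with slides blocked.

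At 24 hr the agonist livers were lower in Zbtb16 and in Cd69, and no gene of the 37 was higher at the threshold. The 2 lower genes are 5.41% of the 37, against 17.6% higher and 8.95% lower of all genes tested, and the median log2 difference was -0.12, against 0.01. With limma at an unadjusted p under 0.05, 2 were higher and 3 lower, again without a count over all genes at that threshold. With slides blocked Cd7 was higher (0.37, adjusted p = 0.0363) and Zbtb16, Cd69 and Batf lower, and for 35 of the 37 genes the 95% confidence interval lay within 1 log2 unit of 0.

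Zbtb16 was at 1.48, 0.50, 1.71, 1.63 and 2.07 in ConA + BW245C livers at 24 hr, against 2.56, 1.91, 2.29, 2.81 and 2.57 in ConA + vehicle livers. The ranges overlapped slightly, with replicate 2 of ConA + BW245C the lowest, and Zbtb16 was 1.93-fold lower (-0.95 ± 0.28 SE, adjusted p = 0.0144), -1.29 with slides blocked and -1.19 within slide 4. Without that mouse the difference was -0.70 (adjusted p = 0.0548). Cd69 was at -3.39, -3.81, -3.83, -3.18 and -2.69 in ConA + BW245C livers, against -2.08, -2.43, -3.04, -2.04 and -2.67 in ConA + vehicle livers. The ranges overlapped, and Cd69 was 1.90-fold lower (-0.93 ± 0.28 SE, adjusted p = 0.0166), -1.11 with slides blocked and -0.92 within slide 4. The call was lost on leaving out ConA + vehicle replicate 1 or 4 or ConA + BW245C replicate 2 or 3 (adjusted p 0.0503 to 0.0551), and with a normexp background (-0.30, adjusted p = 0.0645).

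The CD3 chains and co-receptors did not pass at 24 hr. Cd3d was at 0.53, 0.03, 0.85, 0.33 and 0.81 in ConA + BW245C livers, against 1.09, 0.93, 0.56, 0.26 and 0.34 in ConA + vehicle livers (-0.13, 95% confidence interval -0.58 to 0.32). Cd3g was at -0.60, -0.84, -0.32, -0.93 and -0.44 in ConA + BW245C livers, against -0.10, -0.26, -0.74, -0.86 and -0.89 in ConA + vehicle livers (-0.06, interval -0.42 to 0.31). In both genes the 2 groups were intermixed. Cd3e was at 2.68, 2.75, 2.15, 2.49 and 2.22 in ConA + BW245C livers, against 2.58, 2.61, 2.40, 2.31 and 2.65 in ConA + vehicle livers (-0.05, interval -0.32 to 0.21). Cd247 was at -4.43, -4.36, -4.57, -4.25 and -3.65 in ConA + BW245C livers, against -3.88, -3.94, -4.34, -4.68 and -4.55 in ConA + vehicle livers (0.03, interval -0.61 to 0.66). Neither separated the groups. Cd4 was at 5.75, 5.86, 4.36, 5.60 and 4.82 in ConA + BW245C livers, against 5.19, 5.81, 5.51, 4.93 and 5.57 in ConA + vehicle livers (-0.12, interval -0.69 to 0.45). Cd8a was at -2.94, -3.43, -2.80, -3.39 and -2.86 in ConA + BW245C livers, against -2.21, -2.56, -2.92, -3.71 and -3.19 in ConA + vehicle livers (-0.16, interval -0.71 to 0.38). Both co-receptor genes overlapped.

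Nfatc1 at 24 hr was at -0.11, -0.13, 0.12, -0.22 and -0.08 in ConA + BW245C livers, against -0.56, -0.48, -0.58, -0.29 and -0.38 in ConA + vehicle livers. The 5 BW245C livers were all higher, and it was the single gene of the 37 whose groups did not overlap at this time (12% of all genes tested had no overlap upwards and 5.41% downwards), yet the difference of 0.37 ± 0.16 SE did not pass (adjusted p = 0.0959) and its second probe gave -0.14. Zap70 (0.36, interval 0.08 to 0.65, adjusted p = 0.0534) and Batf (-0.41, interval -0.78 to -0.05, adjusted p = 0.0852) did not pass either. The differences of the genes that did not pass ranged from -0.41 to 0.38.

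Of the 49 other pathway genes, 2 were higher and 7 lower with the agonist at 3 hr, when 11.8% of all genes tested were higher and 16.9% lower. The lower ones included Lcp2, which encodes the adaptor SLP-76 (-0.74 ± 0.23 SE), and Nck1 (-0.64 ± 0.13 SE), and the higher ones were Orai1, the calcium channel (0.40 ± 0.08 SE), and Nfatc3 (0.25 ± 0.09 SE). With slides blocked 1 was higher and 1 lower. At 24 hr 3 were higher and 9 lower, when 17.6% of all genes tested were higher and 8.95% lower, and the lower ones included Il2 (adjusted p = 0.00614, above background on 0 ConA + BW245C and 3 ConA + vehicle arrays, so no fold is given) and Egr2 (-1.07 ± 0.32 SE), and with slides blocked 4 were higher and 9 lower. NK cell and B cell markers were called in 0 of 6 each at both times. At 24 hr 4 of 7 neutrophil markers were lower with the agonist, and their sums were 14000 to 21200 in ConA + BW245C livers and 26600 to 39900 in ConA + vehicle livers, in percent of the 75th percentile, and their part in the T cell gene differences was not tested.

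The test of whether the agonist's effect differed between the times called 3 of the 37 genes, 1 in the higher and 2 in the lower direction, against 19.2% and 10.8% of all genes tested. Nfatc1 had an agonist effect 1.96 ± 0.23 SE higher on the log2 scale at 24 hr than at 3 hr (adjusted p = 1.39e-05; 1.45 and 0.0025 with slides blocked). That of Zbtb16 was 2.39 ± 0.39 SE lower at 24 hr, or -2.39 (adjusted p = 0.000292; -3.20 and 0.000803 with slides blocked), as the gene stood above vehicle at 3 hr and below it at 24 hr. Sh2d2a also passed (-0.77 ± 0.23 SE, adjusted p = 0.0174), but blocking on slides gave -0.05 (adjusted p = 0.862). For Cd69 the agonist effects of -0.93 at 24 hr and -0.42 at 3 hr were not shown to differ (-0.51, 95% confidence interval -1.33 to 0.31, adjusted p = 0.332).

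**Figure D5:**
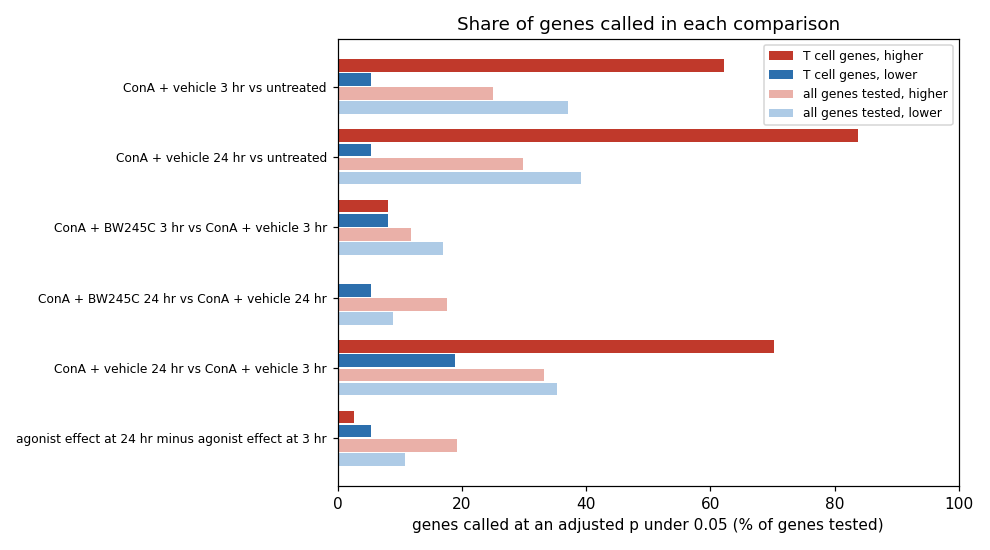
Bars give the share of the 37 T cell genes and of all 15101 genes tested that were higher or lower at an adjusted p under 0.05 in each of 6 comparisons. The share of T cell genes that were higher is 83.8% at 24 hr and 62.2% at 3 hr after ConA with vehicle, against 29.8% and 25% of all genes, while for the agonist no bar of the T cell genes exceeds that of all genes.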

How the data were processed

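Whole liver RNA of 25 mice was labelled with Cy3 and hybridised to Agilent 1-colour arrays, 1 per mouse. Per the file headers, the deposited intensity values were background-subtracted and spatially detrended by the authors with Feature Extraction 10.7.3.1, with no scaling between arrays (version 9.1 in the submitters' processing notes). The authors' series matrix holds the same intensities times 1 factor per array, whose rule is not given in the sources used here.

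From the deposited intensity, log2 values were taken relative to the 75th percentile of each array. Control spots were left out, spots of a probe were averaged, and a probe was kept if 5 or more of 25 arrays had it well above background (33502 of 55681). A gene took its brightest probe; 26576 probes carried a symbol. The 37 genes had 50 probes, and the larger disagreements between probes of a gene are given with the results. Groups were fitted together in limma 3.58.1 (R 4.3.3), with 1 mean per group, empirical Bayes and Benjamini-Hochberg adjustment over 15101 genes at a threshold of 0.05. The fit was tested on simulated data. Tables and figures were made with Python 3.11.15, numpy 2.4.6, pandas 2.3.3 and matplotlib 3.10.9. The labels name separate mice, so p-values measure the spread between mice.

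The 37 genes and the lists of other pathway genes and cell markers were chosen with earlier results of these data known. Values in every mouse are given for the CD3 chains, Cd4, Cd8a, Cd69 and, in each comparison, at most 6 of the largest rises and 6 of the largest falls past the threshold whose arrays did not overlap. From the other lists at most 3 rises and 3 falls are named, and some results of those lists are not reported here. Zbtb16 and Nfatc1 with the agonist at 24 hr are given in every mouse outside that rule, chosen after their values were seen. Replicate numbers did not pair the mice: the deviations of 50 same-numbered pairs correlated at a median of -0.0136 (-0.361 to 0.342). Alternatives were background correction, scaling, probe filters, slide and replicate blocks, the groups fitted, and each mouse left out.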

Additional observations from a re-analysis of the deposited data

Results flagged for a closer look

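In 10 of the 185 sets of 5 mice examined, 1 mouse lay far from the other 4 by Dixon's criterion, and chance flags about 1 set in 20. Untreated replicate 2 had the lowest Cd3d level (-3.00, next -2.67), and untreated replicate 1 the highest Cd3e level (2.19, next 1.97). ConA + BW245C replicate 2 at 24 hr was the lowest of its group for Txk (-2.70, next -1.89), Fyn (-3.14, next -2.47) and Ptpn22 (-1.66, next -1.16). ConA + BW245C replicate 2 at 3 hr was lowest for Lef1 (-5.13, next -4.40), and replicate 5 highest for Zbtb16 (3.84, next 3.45). ConA + vehicle replicate 1 at 24 hr was lowest for Cd44 (0.795, next 1.01). At 3 hr ConA + vehicle replicate 2 was highest for Cd96 (-4.74, next -6.27), in a group where that gene was above background on 0 arrays, and replicate 1 highest for Ptprc (0.405, next -0.385).

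For 3 genes the log2 effect of BW245C differed between 24 hr and 3 hr by the interaction term of limma: Nfatc1 by 1.96, Sh2d2a by -0.77 and Zbtb16 by -2.39. The Sh2d2a difference did not pass with the slide as a block.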

How the results depend on the processing

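With ConA + vehicle at 3 hr against untreated, 1 gene was lower with normexp and with the mean of a gene's probes, and the median log2 difference was 0.36 with normexp and 0.95 within slide 2. At 24 hr against untreated, the median was 1.95 with quantile normalization, 0.78 with normexp, 2.57 in the authors' series matrix and 2.51 with the slide as a block. There 1 gene was lower with the percentile over probes detected on all arrays, the mean of probes, the series matrix or the slide as a random block, and 19 were higher with probes detected on all 25 arrays. At 24 hr against 3 hr the median was 0.37 with normexp, 1.73 with the all-detected percentile, 1.09 with the strict filter and with the mean of probes, 1.90 in the series matrix, 1.78 with the slide block and 1.83 within slide 3. The lower genes there numbered 4 with the all-detected percentile, 3 in the series matrix and 4 with the slide block, and 17 were higher with the strict filter. The causes of these shifts were not tested, apart from the strict filter, which left fewer genes to count.

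For BW245C against vehicle at 3 hr, 8 were lower with quantile normalization, and 1 was lower with normexp, the all-detected percentile, no filter, the series matrix or the compared groups alone. Higher there were 6 with the all-detected percentile or the series matrix, and 1 with no filter, either slide block, the replicate block or the compared groups alone. At 24 hr 1 was higher with quantile normalization, the strict filter, the mean of probes, the slide block or the compared groups alone, and 1 was lower with normexp or the strict filter. For the difference between times the median was -0.25 in the series matrix, and 1 was lower with either slide block. The replicate block, with mice not paired, gave 23 higher and 2 lower at 3 hr and 32 and 2 at 24 hr against untreated, and 0 and 2 for the agonist at 24 hr. At 3 hr the agonist count under that block was 1 higher and 3 lower. Of the higher genes, Cd3e and Sh2d2a no longer passed. Of the lower ones, Ptprc no longer passed (adjusted p = 0.0524) and Cd6 passed in its place (-0.59, adjusted p = 0.0346). No count but that of the higher genes moved by over 1.5 times under that block.

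Directions reversed with normexp for Themis at 3 hr (0.24), Cd247 (-0.033) and Cd226 (-0.010) at 24 hr against untreated, and at 24 hr against 3 hr for Cd247 (-0.24), Cd226 (-0.37), Themis (-0.011) and Ubash3a (-0.16). Calls of Themis (0.23) and Ubash3a (0.050) at 24 hr against untreated and of Cd8a (0.079) at 24 hr against 3 hr were lost with normexp. Nfatc1 at 24 hr was 0.00017 with the mean of probes, and Cd44 at 24 hr against 3 hr was 0.033 with the all-detected percentile and 0.20 in the series matrix.

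Leaving out 1 mouse gave 21 to 24 higher, 2 to 4 lower and a median of 0.63 to 0.79 at 3 hr against untreated (4 lower without untreated replicate 4), and 31 to 32, 1 to 3 and 2.08 to 2.30 at 24 hr (1 lower without untreated replicate 2, 3 or 5 or ConA + vehicle replicate 1, 2 or 3). For the agonist at 3 hr it gave 1 to 6 higher, 1 to 5 lower and medians of -0.13 to -0.03: 1 higher without ConA + vehicle replicate 1 or 3 or ConA + BW245C replicate 2, 3, 4 or 5, 6 higher without ConA + vehicle replicate 4, 5 higher and 5 lower without its replicate 5, and 1 lower without untreated replicate 3 or 5, ConA + vehicle replicate 1 or 3 or ConA + BW245C replicate 5. For the agonist at 24 hr it gave 0 to 1 higher, 0 to 3 lower and medians of -0.21 to -0.00035: 0 lower without ConA + BW245C replicate 2, 1 lower without its replicate 3 or ConA + vehicle replicate 1 or 4, and 1 higher without ConA + vehicle replicate 1 or ConA + BW245C replicate 4. At 24 hr against 3 hr it gave 24 to 26, 4 to 7 and 1.27 to 1.62 (4 lower without ConA + vehicle 3 hr replicate 1), and for the difference between times 1 to 2, 2 to 4 and -0.14 to 0.085 (4 lower without ConA + vehicle 3 hr replicate 4, 2 higher without its replicate 5).

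In the series matrix the median of all genes shifted by -0.20 at 3 hr and 0.26 at 24 hr against untreated, with 3098 higher and 6783 lower genes at 3 hr. It shifted by 0.42 at 24 hr against 3 hr (8343 higher, 2920 lower), by 0.08 for the agonist at 3 hr (2871 and 1754) and -0.10 at 24 hr (1956 and 2615), and by -0.12 for the difference between times (1435 and 3052). With the all-detected percentile the splits were 6292 and 4468 at 24 hr against untreated, a shift of 0.15, 3018 and 1721 for the agonist at 3 hr, 6976 and 3642 at 24 hr against 3 hr, a shift of 0.25, and 1632 and 2697 for the difference between times. Genes dim in untreated livers give only lower bounds.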
